A study of Homo sapiens with 4 samples.

Results

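The inhibitors of proteases described here, secreted, membrane-bound or cytosolic, were followed across 4 microarrays: SLPI, PI3, SERPINA1, SERPINB1, SERPINB5, SERPINE2, SPINT1, SPINT2 and TFPI. These 9 genes, of 43317 gene names on the array, were represented by 12 of its 58201 gene probes, taken by exact gene name. SLPI was selected on its signal, which was at least 2-fold lower with miR-891b in both cell lines. The other 8 were chosen by function with their levels and changes known, so all values of these genes are a description and no p-value is given for them. HCT116, a colorectal cancer cell line, and A549, a lung cancer cell line, were transfected with Dharmafect1 and either the microRNA miR-891b or the negative control RNA NC1. Each of the 4 groups, which are NC1 and miR-891b in either line, had 1 array of total RNA, and the time between transfection and harvest is not given in the sources used here. The lines differ in tissue of origin, and the labels name McCoy's 5A and DMEM as their media. By its title, the study is about PSAT1 in vesicle release and bone metastasis.

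Extracellular and lysosomal proteases are held in check by families of inhibitors that fit into the active site of the enzyme. The WAP proteins SLPI and PI3 (elafin) are small, disulphide-rich inhibitors that epithelia secrete against neutrophil elastase and related enzymes. Serpins are larger suicide inhibitors that trap their protease in a covalent complex. Kunitz inhibitors, among them SPINT1 and SPINT2 on the cell surface and TFPI in coagulation, block trypsin-like enzymes with a compact loop.

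The transfected microRNA and the probes on which the main values rest are shown first. Mature miR-891b, from RefSeq on GRCh38.p14 (chrX:146001100-146001121, minus strand), is printed with its seed, bases 2 to 8, in capitals, because a microRNA pairs with its targets mainly through these bases.
hsa-miR-891b: uGCAACUUaccugagucauuga
The DNA letters that pair with the seed are AAGTTGC. They occurred, on the strand given for the probe, in 0 of the 12 probes of the inhibitors and in 229 of 58201 probes (0.393%). The shorter AAGTTG occurred in 1 of the 12, the second SERPINA1 probe, and in 1.9% of all probes. A probe covers 60 bases of a transcript, so this says only that the letters are not in these windows.

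As background, the SLPI and PI3 probes lie in coding sequence, and they show the trait of the WAP family, with the cysteine codons of the reading frame from base 1 in capitals. The SLPI probe lies at chr20:43882220-43882279 on hg19 (minus strand) and the PI3 probe on the same chromosome arm at chr20:43804645-43804704 (plus strand).
SLPI: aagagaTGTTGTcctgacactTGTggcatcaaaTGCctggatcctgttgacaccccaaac
PI3: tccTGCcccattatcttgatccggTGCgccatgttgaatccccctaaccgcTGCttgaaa
Cysteine, whose paired residues hold these small proteins together, took 4 of 20 codons in the SLPI probe and 3 of 20 in the PI3 probe.

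The probes of the serpins SERPINB1 (chr6:2833864-2833923, minus strand) and SERPINE2 sit in matching parts of the coding sequence. Capitals mark codons for the same residue, which were 12 of the 16 codons that the windows share in the frame from base 2. The SERPINE2 probe was placed at chr2:224840597-224842295 (minus strand), so its 60 bases span 1699 bases of the genome and cross a splice junction.
SERPINB1: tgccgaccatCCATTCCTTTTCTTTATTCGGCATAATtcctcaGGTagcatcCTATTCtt
SERPINE2: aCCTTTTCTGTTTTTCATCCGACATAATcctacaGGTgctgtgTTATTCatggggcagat

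Levels are given as the log2 of the processed signal minus the 75th percentile of the array, so 0 is that percentile of the gene probes. Feature Extraction, the scanner software, marks whether a spot is well above background and gives an error for each spot. The error of a difference below is that spot error carried onto the log2 scale (1 SD). It covers the spots only, and with 1 culture a group nothing is known of the spread between cultures. Probes printed at 5 or more spots gave a median SD of the log2 difference of 0.061 over 276 probes in HCT116 and 0.071 over 287 in A549.

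Between 44.7% and 50.3% of the gene probes were well above background on the 4 arrays, and no gene spot was saturated. Areas of stray signal held 10.5% of gene spots on the HCT116 miR-891b array, against 2.20% or less on the other arrays. Of the 12 inhibitor probes, 1 lay in such an area, the PI3 probe on HCT116 miR-891b, where 12.56% of nearby dim spots were bright. For other genes, a spot is said below to lie in such an area if it did so on any of the 4 arrays. That array can be one outside the comparison given. Both arrays of a line were on 1 slide, so line and slide cannot be told apart. The colorectal markers CDX2, EPCAM, CLDN7, CLDN3 and CDH1 were well above background in HCT116, and VIL1, LGALS4 and GPA33 were not. All of these but GPA33 were well above background in A549. All 6 A549 markers were well above background in A549, and 5 of them on HCT116 NC1 and 4 on HCT116 miR-891b. The summed linear level of the colorectal list was 147 to 189 in HCT116 and 23.0 to 23.6 in A549, and that of the A549 list 59.4 to 67.6 in HCT116 and 2201 to 3168 in A549. Of 10 fibroblast markers, 2 were well above background on each HCT116 array, and in A549 there were 4 with NC1 and 5 with miR-891b, with a summed linear level (1 is the 75th percentile signal) of 2.27 to 2.72 in HCT116 and, in A549, 4.33 with NC1 and 10.7 with miR-891b. COL1A2, COL3A1, DCN, FAP and POSTN were not well above background on any array, and the part of this list in the results was not tested. The summed level of 8 leukocyte markers was 0.928 to 3.46 and that of 5 endothelial markers 0.423 to 0.69. In cells measured in bulk, fewer cells that express a gene and less RNA per cell cannot be told apart.

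**Figure D1:**
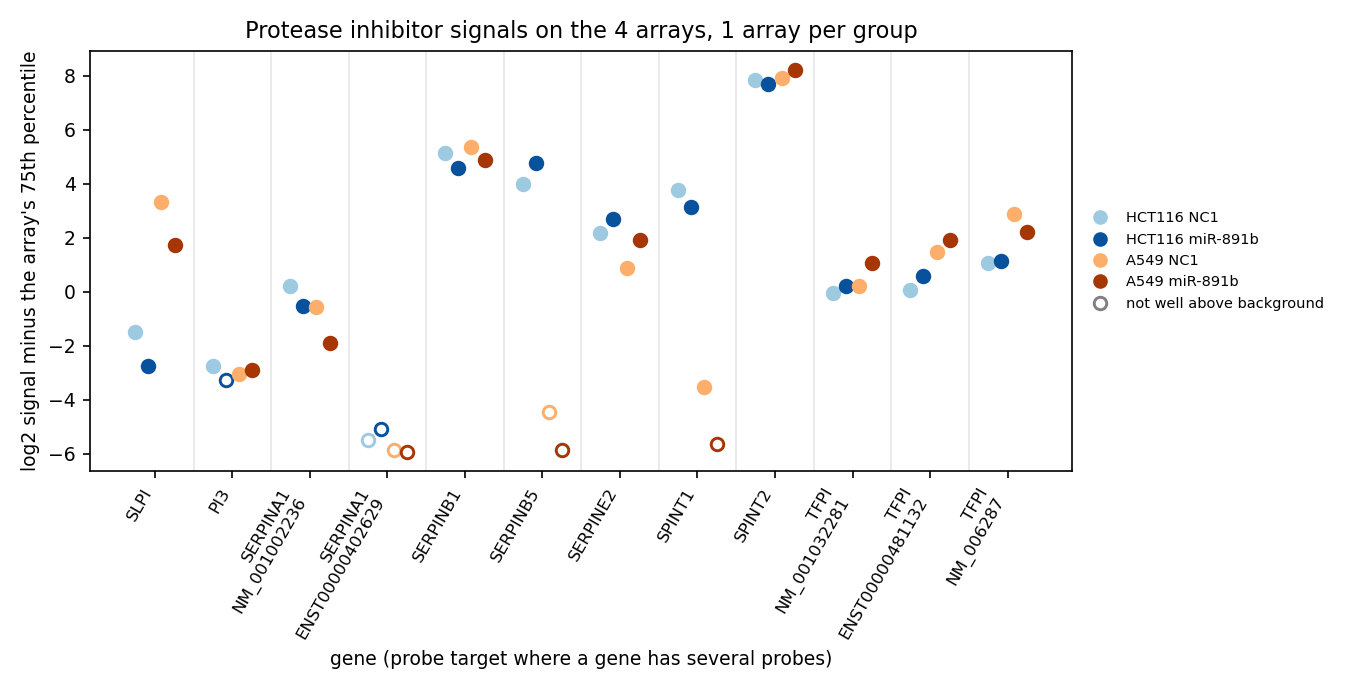
Log2 signal minus the array's 75th percentile (vertical axis) for the 12 probes of the 9 inhibitor genes (horizontal axis), with 1 point for each of the 4 arrays. Open circles were not well above background. SLPI is higher in A549 than in HCT116, SERPINB5 and SPINT1 are far higher in HCT116, and SPINT2 lies between 7.72 and 8.23 on all arrays. Heights of different probes are not comparable.

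SLPI, which protects mucosal surfaces from neutrophil elastase, fell with miR-891b in both lines and was much higher in A549 than in HCT116. The processed signal of its probe was 19.8 (spot error 2.3) on HCT116 NC1 and 8.6 (spot error 1.8) on HCT116 miR-891b. In A549 the NC1 array gave 761.1 (spot error 76.1) and the miR-891b array 249.1 (spot error 24.9). The log2 levels in that order were -1.47, -2.74, 3.35 and 1.75. Both A549 arrays thus lay above both HCT116 arrays, and miR-891b lay below NC1 within each line.

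The change in SLPI was -1.26 (error 0.35) in HCT116, a 2.40-fold lower signal, and -1.60 (error 0.20) in A549, a 3.03-fold lower signal. It ranked 51 from the lowest of 19105 genes measured in HCT116 and 317 of 21336 in A549. The A549 change was lower than the HCT116 change by a difference of -0.34, which is within the error of the HCT116 value. On the NC1 arrays SLPI was 4.82 higher in A549, or 28.3-fold, and on the miR-891b arrays 4.48 higher, or 22.4-fold. The HCT116 signals were dim. With normexp background correction, which adds an offset of 50 to every signal, and quantile normalization, the HCT116 change was -0.27 and no longer past 2-fold, while the A549 change was -1.33 and the line difference on the NC1 arrays 3.13.

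PI3, the closest relative of SLPI in the set, was dim on all arrays. Its log2 levels were -2.73 in HCT116 NC1, -3.03 in A549 NC1 and -2.90 in A549 miR-891b, and it was not well above background in HCT116 miR-891b. The change in A549 was 0.13 (error 0.32). In HCT116 the difference was -0.53 (error 0.50), with the miR-891b spot in an area of stray signal. As a bound, the signal was at least 1.32-fold lower with miR-891b than with NC1. The bound, here and below, is the lowest signal that was well above background on the dimmer array, and it leaves out the spot errors. On the NC1 arrays the lines differed by -0.30 (error 0.32), without the line difference of SLPI. The A549 change lay within its error of 0, unlike that of SLPI, while the bound in HCT116 does not separate PI3 from SLPI.

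Genes near SLPI that were measured on both arrays of a line stayed within 2-fold, and others appeared on a single array. Within 500 kb of the SLPI probe on hg19, 38 other gene names had a probe, and 15 of them were well above background on at least 1 array. Of the 11 measured in HCT116 and the 11 measured in A549, 0 were at least 2-fold changed in either direction. Over all measured genes 0.843% were lower and 1.16% higher in HCT116, and 5.57% and 4.0% in A549, so nothing is read from the 0. SDC4, the heparan sulphate proteoglycan syndecan-4, changed by -0.22 in HCT116 and -0.33 in A549, with its spot in an area of stray signal. WFDC2, a further WAP protein of this locus, changed by -0.26 in HCT116 and was not well above background in A549 NC1. The values in HCT116 ran from -0.64 for DBNDD2 to 0.33 for SYS1, and those in A549 from -0.67 for TOMM34 to 0.74 for PIGT. In HCT116 the noncoding lnc-WFDC8-1 had log2 levels of -5.60, not well above background, with NC1 and 1.15 with miR-891b, at least 25.9-fold higher. WFDC11, a WAP gene whose spot lay in an area of stray signal, was likewise well above background on the HCT116 miR-891b array alone, at least 2.90-fold higher.

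SERPINA1, which encodes alpha-1 antitrypsin, the main serpin against neutrophil elastase in blood, fell in A549. Its probe for NM_001002236 (chr14:94844791-94844850, minus strand) gave log2 levels of 0.21 in HCT116 NC1, -0.51 in HCT116 miR-891b, -0.55 in A549 NC1 and -1.89 in A549 miR-891b. The lowest array was A549 miR-891b, and HCT116 miR-891b and A549 NC1 lay side by side. The change was -0.72 (error 0.21) in HCT116, short of 2-fold, and -1.34 (error 0.22) in A549, a 2.53-fold lower signal. In A549 it was -0.46 under normexp with quantile normalization. A second probe, for ENST00000402629, stayed too close to background on all arrays to count as measured and gives no check of these values.

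SERPINB1, a cytosolic serpin against neutrophil proteases, was bright on all arrays. Its log2 levels were 5.16 in HCT116 NC1, 4.59 in HCT116 miR-891b, 5.36 in A549 NC1 and 4.90 in A549 miR-891b. The miR-891b array was the lower one in each line, by -0.57 (error 0.20) in HCT116 and -0.45 (error 0.20) in A549, both short of 2-fold. The lines lay close, with an A549 minus HCT116 difference of 0.20 on the NC1 arrays, no larger than its error of 0.20.

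SERPINE2, or protease nexin-1, inhibits thrombin and plasminogen activators at the cell surface. Of the 9 genes it alone rose past 2-fold with miR-891b, and it did so in A549. Log2 levels were 2.18 in HCT116 NC1, 2.70 in HCT116 miR-891b, 0.88 in A549 NC1 and 1.92 in A549 miR-891b, so that the miR-891b array was the higher one in each line and both HCT116 arrays lay above both A549 arrays. The change was 1.04 (error 0.20) in A549, a 2.05-fold higher signal close to the threshold, and 0.51 (error 0.20) in HCT116. Under normexp with quantile normalization the A549 value was 0.87. The line difference on the NC1 arrays was -1.30, or 2.47-fold lower in A549, and it was -0.97 under the same alternative.

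SERPINB5, or maspin, belongs to the serpin family without inhibiting proteases in the usual way and is known as a tumour suppressor of epithelial cells. Its probe (chr18:61172218-61172277) was well above background in HCT116 only, with log2 levels of 3.99 with NC1 and 4.76 with miR-891b. The change in HCT116 was 0.78 (error 0.20), the 407th highest of 19105 genes, and short of 2-fold. In A549 it was not well above background on either array, and no change can be given. HCT116 was at least 246-fold higher than A549 on the NC1 arrays and at least 415-fold higher on the miR-891b arrays.

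SPINT1 (HAI-1), a membrane-bound Kunitz inhibitor of matriptase and of hepatocyte growth factor activator, was also a gene of HCT116. Its log2 levels (probe at chr15:41149316-41149375) were 3.76 in HCT116 NC1, 3.15 in HCT116 miR-891b and -3.53 in A549 NC1, and it was not well above background in A549 miR-891b. On the NC1 arrays A549 was lower by a difference of -7.29, or 157-fold, the 9th lowest of 19218 genes measured in both. With normexp and quantile normalization that difference was -3.93, and the A549 signal of 6.5 is far below the offset of 50. On the miR-891b arrays HCT116 was at least 135-fold higher. The change in HCT116 was -0.61 (error 0.20), short of 2-fold. In A549 the signal was at least 1.32-fold lower with miR-891b.

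SPINT2 (HAI-2), the related inhibitor with a like range of target proteases, did not share this pattern. Its log2 levels (probe at chr19:38782859-38782918) were 7.84 in HCT116 NC1, 7.72 in HCT116 miR-891b, 7.94 in A549 NC1 and 8.23 in A549 miR-891b. The NC1 arrays of the lines differed by 0.10 (error 0.20). The changes were -0.12 in HCT116 and 0.29 in A549, each with an error of 0.20. With quantile normalization they were -0.0067 and 0.80.

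**Figure D2:**
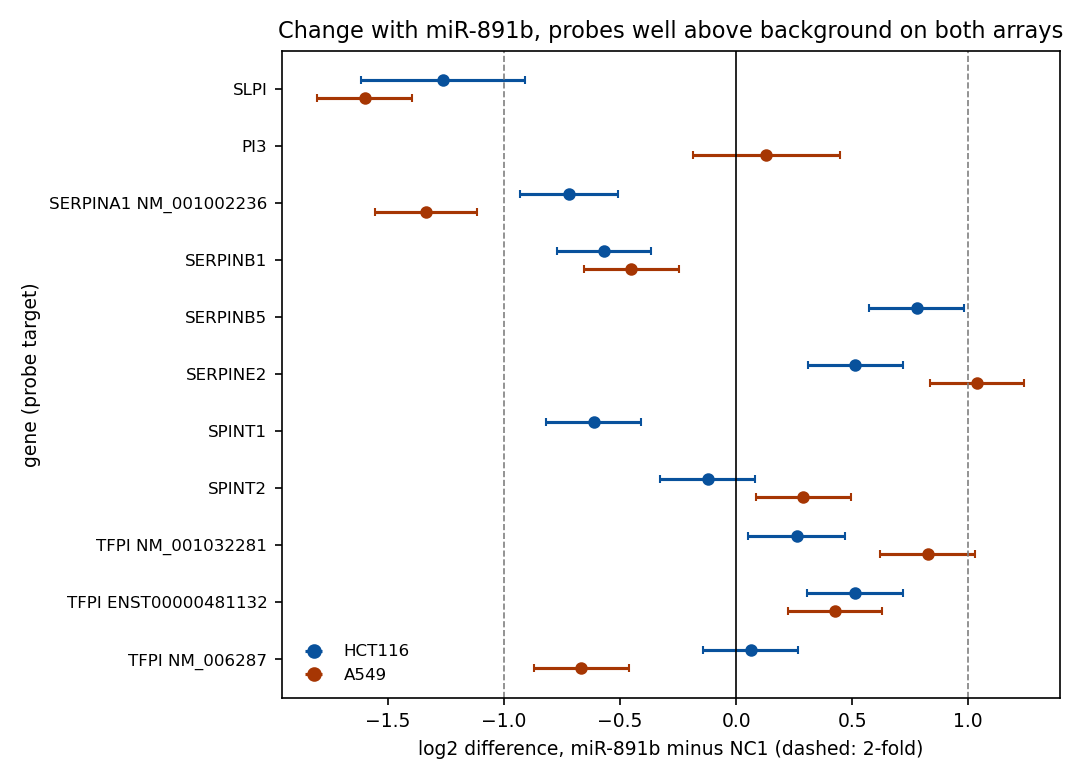
Log2 difference of miR-891b minus NC1 (horizontal axis) in HCT116 and A549 for each inhibitor probe measured with NC1 and with miR-891b in the line (vertical axis). Bars are 1 SD of the spot error from Feature Extraction, not of cultures, and dashed lines mark 2-fold. SLPI lies left of the lower line in both cell lines, at -1.26 and -1.60, SERPINA1 in A549 only, and SERPINE2 reaches the upper line in A549.

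TFPI, which blocks factor Xa and the complex of tissue factor with factor VIIa, was measured by 3 probes that did not move together. The probe for transcript variant 1 (NM_006287, chr2:188329008-188329067), which as background encodes the full-length alpha form, gave log2 levels of 1.09 in HCT116 NC1, 1.15 in HCT116 miR-891b, 2.88 in A549 NC1 and 2.21 in A549 miR-891b. The probe for transcript variant 2 (NM_001032281, chr2:188343406-188343465), which encodes the membrane-anchored beta form, gave -0.038, 0.22, 0.24 and 1.06 on the same arrays. The third probe (ENST00000481132, chr2:188349518-188349577) gave 0.069, 0.58, 1.497 and 1.92.

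All 3 TFPI probes lie on the minus strand. The probe of variant 2 and the third probe are shown, since they moved in A549 in the direction opposite to the probe of variant 1. Capitals in the third mark GTAAGT, the letters of a common start of an intron, found at base 41 on the strand of the probe and in 0.878% of all probes. The probe of variant 2 is without capitals.
TFPI variant 2: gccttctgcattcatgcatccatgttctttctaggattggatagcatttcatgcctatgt
TFPI ENST00000481132: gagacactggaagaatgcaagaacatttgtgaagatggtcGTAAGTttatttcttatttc

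In A549 the variant 1 probe changed by -0.67 with miR-891b, the variant 2 probe by 0.83 and the third by 0.43, each with an error of 0.20 or 0.21, and none reached 2-fold. The variant 2 minus variant 1 difference of these changes was 1.49 (error 0.29) in A549 and 0.20 (error 0.29) in HCT116. The third probe minus the variant 1 probe gave 1.09 (error 0.29) in A549 and 0.45 (error 0.29) in HCT116. The probes thus parted in A549 by more than their spot errors, and in HCT116 the changes of 0.063, 0.26 and 0.51 lay closer together. On the NC1 arrays A549 was above HCT116 by 1.79 for variant 1, 1.43 for the third probe and 0.27 for variant 2. A single value for TFPI depends on the probe: the mean over its probes changed by 0.195 in A549, against -0.67 for the probe with the highest mean.

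**Figure D3:**
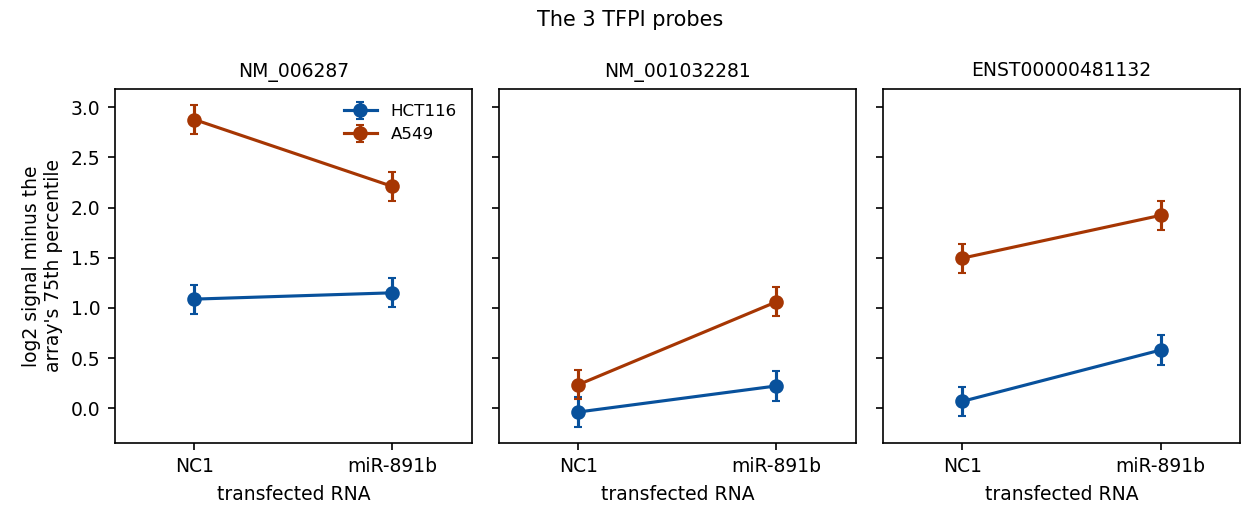
Log2 signal minus the array's 75th percentile (vertical axis) for the 3 TFPI probes in HCT116 and A549 with NC1 and miR-891b (horizontal axis), 1 array per point, with bars for 1 SD of the spot error. In A549 the NM_006287 probe goes from 2.88 to 2.21, while the NM_001032281 probe goes from 0.24 to 1.06 and the ENST00000481132 probe from 1.497 to 1.92.

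Counted by the probe with the highest mean, 8 of the 9 inhibitors were measured, that is well above background on both arrays, in HCT116. Of these, 1 was at least 2-fold lower (SLPI), where 0.843% of 19105 genes were, and 0 were at least 2-fold higher, where 1.16% were. In A549, 7 were measured, with 2 at least 2-fold lower (SLPI and SERPINA1) against 5.57% of 21336 genes, and 1 at least 2-fold higher (SERPINE2) against 4.0%. SLPI was the 1 inhibitor lower in both lines, as were 0.0886% of 18062 genes, and no inhibitor was higher in both, as 0.161% were. SLPI was chosen for that change, so nothing is read from these counts. The median change of the inhibitors was -0.35 in HCT116 and -0.45 in A549, beside -0.041 and -0.059 over all measured genes. Between the lines on the NC1 arrays, 8 were measured, 2 at least 2-fold lower in A549 (SPINT1 and SERPINE2), where 16.2% of 19218 genes were, and 2 at least 2-fold higher (SLPI and TFPI), where 11.1% were.

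The other inhibitors, the target proteases and their receptors were taken from 7 lists, of which 132 genes were on the array. The lists were written from general knowledge, but with earlier results of these data known. In HCT116, 1 of 47 measured genes (2.13%) was at least 2-fold lower and 1 (2.13%) higher, where 0.843% and 1.16% of all genes were. CSTA, an epithelial cystatin against lysosomal cysteine proteases, fell by a change of -1.25, and its A549 change was -0.63. ITIH3, a hyaluronan-binding heavy chain, rose by 1.21, with its spot in an area of stray signal. In A549, 5 of 62 (8.06%) were lower and 6 (9.68%) higher, where 5.57% and 4.0% of all genes were. The list medians were -0.21 in HCT116 and 0.19 in A549. No listed gene was past 2-fold in both lines, where 0.0886% of 18062 genes were lower and 0.161% higher in both.

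Among 32 other serpins, 14 were measured in A549, with 3 lower and 1 higher at 2-fold, where 5.57% and 4.0% of all genes were. The lowest was AGT, which encodes angiotensinogen, with -2.56, its spot in an area of stray signal on at least 1 of the 4 arrays. The highest was SERPINI1 (neuroserpin), with 1.85. The other 2 were SERPINA6, the corticosteroid carrier, with -1.75, and SERPINA3, which inhibits cathepsin G, with -1.27. SERPINB9, which inhibits granzyme B, changed by -0.69 in HCT116 and -0.82 in A549. In HCT116, 0 of 11 measured serpins passed 2-fold, where 0.843% of all genes were lower and 1.16% higher. SERPINA3, SERPINA6 and SERPINB9 were named after their values were seen, as were AMBP and LRP1 below.

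Of the Kunitz and Kazal inhibitors, 2 of 8 measured in A549 were higher, where 4.0% of all genes were. They were SPINK1, the pancreatic trypsin inhibitor, with 1.71, and AMBP, the precursor of bikunin, with 1.36. Neither was well above background in HCT116. ITIH2, a partner of bikunin, was higher in A549 by 1.51, and PEBP1 was lower, with -1.18 at one probe and -1.14 at another. Of the targets of SERPINE2 and TFPI with their receptors, PLAUR, the urokinase receptor, changed by -1.47 in A549 (its spot in an area of stray signal), F2RL2, a thrombin receptor, by 1.79, and LRP1, which clears inhibitor complexes, by 1.101 (its spot also in such an area). F3, or tissue factor, the partner that TFPI restrains, changed by 0.22 in HCT116 and -0.100 in A549.

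The cell lines were also fitted together as the only replication of the transfection, with limma on all genes, a term for the line and 1 residual degree of freedom. Of the 70 listed genes that entered, 0 passed an adjusted p of 0.05 (limma, Benjamini-Hochberg over all 22711 genes), the smallest being 0.793. Over all 22711 genes 0 passed as well. On simulated data this fit called 0 of 40 genes planted at 2-fold and 1 of 40 at 4-fold. Changes of that size would thus mostly be missed, and nothing is read from the 0. An unadjusted p from limma under 0.05 was seen for 8 of the 70, and for 1214 of all 22711 genes. The lowest belonged to SPINK1, with a coefficient of 1.81 (SE 0.24, unadjusted p from limma 0.00131), whose HCT116 levels were not well above background. With no filter on dim probes, 0 of 132 passed, with a smallest adjusted p from limma of 0.168 and 15 at an unadjusted p under 0.05. Of all 43309 genes in that setting, 6 passed and 3686 had such an unadjusted p. Because the lists were written with earlier results of these data known, nothing is read from the shares at an unadjusted p under 0.05.

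The target proteases of SLPI, PI3, SERPINA1 and SERPINB1 were mostly dim. ELANE (neutrophil elastase) and CTSG (cathepsin G) were not well above background on any array, and PRTN3 (proteinase 3) was on HCT116 NC1 alone. PRSS3, a trypsin, was measured on all arrays and changed by 0.56 in HCT116 and -0.68 in A549. KLK5 and KLK7, skin-type kallikreins, were well above background in HCT116 only, with changes of 0.78 and 0.30.

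Proteases that SPINT1 and SPINT2 restrain, with growth factors and receptors downstream of them, were set beside the line difference of SPINT1. SPINT2 differed by only 0.10 (error 0.20) between the NC1 arrays. Of 7 listed genes measured on both NC1 arrays, 5 had a signal lower by 2-fold or more in A549 and 0 a higher one, where 16.2% and 11.1% of all genes did, with a median difference of -2.15 beside -0.100 over all genes. The 5 were the proteases ST14 and PRSS8, the ligand MST1 and the receptors MST1R and MET. ST14, which encodes matriptase, had log2 levels of 3.38 in HCT116 NC1 and -0.73 in A549 NC1, a difference of -4.11. PRSS8 (prostasin), which acts with matriptase in epithelia, had 5.996 and -3.27, a difference of -9.26. MST1R, a receptor whose ligand these proteases can activate, differed by -2.15, MST1 by -3.06 and MET, the receptor of hepatocyte growth factor, by -1.38. The other 2 were proteases within 2-fold: HGFAC, the hepatocyte growth factor activator, differed by -0.27 and TMPRSS2 by -0.23. These genes were named for this line difference after their values were seen. With miR-891b, ST14 changed by -0.38 in HCT116 and -0.028 in A549, and PRSS8 by -0.61 and -0.020. None of the listed genes of this group, 6 measured in HCT116 and 7 in A549, passed 2-fold with miR-891b in either line. Over all genes 0.843% were lower and 1.16% higher in HCT116, and 5.57% and 4.0% in A549.

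**Figure D4:**
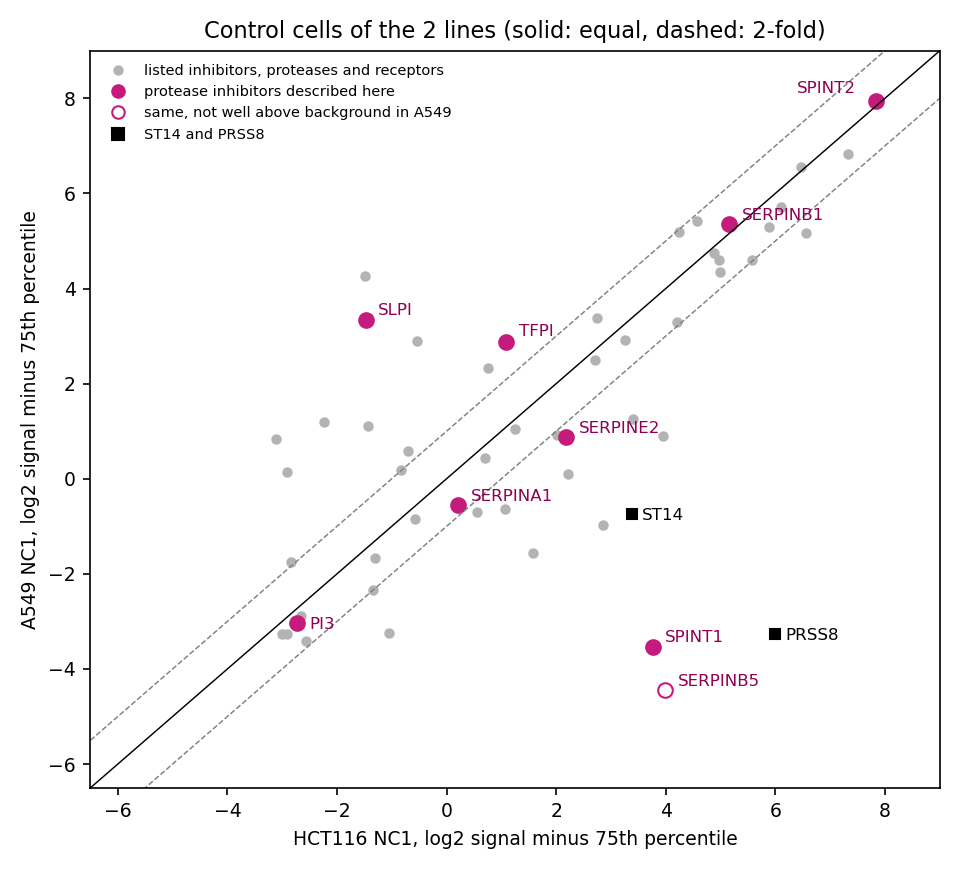
Log2 signal minus the 75th percentile on the HCT116 NC1 array (horizontal axis) and the A549 NC1 array (vertical axis) for the 9 inhibitors, each by its probe with the highest mean, and for the listed genes well above background on both arrays, 1 array per line. The solid line marks equal levels and dashed lines 2-fold. SLPI lies above the lines, SPINT1, ST14 and PRSS8 far below them, and SERPINB5 (open) is not well above background in A549.

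The genes most like SLPI were sought among 13644 named genes well above background on all 4 arrays, by the distance between their 4 levels and those of SLPI after centring each gene on its mean. The median distance was 5.07. The nearest was KRT7, a keratin of simple epithelia, at a distance of 0.774, with a line difference of 5.02 on the NC1 arrays and changes of -0.26 in HCT116 and -1.62 in A549. CBS, an enzyme that makes cystathionine from serine and homocysteine, followed at 0.788, with 4.89, -0.85 and -0.67. KRT80 lay at 0.859, SPDEF, an epithelial transcription factor, at 0.865 and CLDN2, a tight junction protein, at 0.902. The line difference sets most of this likeness: none of these 5 genes was at least 2-fold lower with miR-891b in HCT116, where the values ran from -0.85 to -0.14, and 2 of them, KRT7 and SPDEF (-1.26), were in A549.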

How the data were processed

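Total RNA (100 ng) was labelled with Cy3 for 1-colour Agilent arrays, per the labels, and samples were grouped by title. The deposited scanner files hold intensity values from Feature Extraction 11.5.1.1, per the file headers and the submitters' processing notes: background-subtracted and spatially detrended, unscaled between arrays, with probe coordinates on hg19. The deposited table of the authors' log2 values, whose making is not stated, differed from the main setting below by a median of at most 0.0069 on any array and was used as an alternative.

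After removal of spots that the software marks as outliers, replicate spots were averaged as log2 processed signal, and each array's 75th percentile was subtracted. A gene was its probe with the highest mean, measured where well above background on both arrays compared, and called at 2-fold. Areas of stray signal were those where at least 10% of dim spots within 10 rows and columns were bright. This limit came from earlier work on these data. The members, lists, markers and tests were chosen with earlier results of these data known.

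Named genes were all members, in each list the lowest and highest past 2-fold in each line, genes past 2-fold in both lines, the 6 genes nearest to SLPI and its neighbours within 500 kb. Of the genes nearest to SLPI, 1 is not reported here, and its neighbours are named in part. Some listed genes outside the rule are marked in the text. Genes measured on at least 2 of 4 arrays entered limma 3.58.1 (R 4.3.3). On simulated data of 22711 genes the fit called 0 of 40 genes planted at 2-fold, 1 of 40 at 4-fold, 27 of 40 at 8-fold, 38 of 40 at 16-fold and 38 of 40 at 64-fold, with 7 unchanged genes. Other steps used Python 3.11.15, numpy 2.4.6 and pandas 2.3.3. The alternatives were median scaling, quantile normalization alone or after normexp (offset 50), the authors' values, the mean over probes, outlier spots kept, no probes in areas of stray signal, no filter on dim probes, and 1.5-fold and 3-fold thresholds. Names come from the array design and can be outdated. With 1 array per group the number of arrays limits the precision.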

Additional observations from a re-analysis of the deposited data

Results flagged for a closer look

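With all 4 arrays well above background, 2 inhibitor probes had changes of opposite sign in the lines. The TFPI variant 1 probe (NM_006287) changed by 0.063 (error 0.205) in HCT116 and -0.67 (error 0.20) in A549, a difference between the lines of -0.73. SPINT2 changed by -0.12 and 0.29, a difference of 0.41, with an error of 0.20 on each change. The HCT116 changes of both probes were smaller than their errors, so their signs are not settled. With quantile normalization the SPINT2 changes were -0.0067 in HCT116 and 0.80 in A549, and with normexp as well -0.058 and 0.79. Neither difference was tested, with 1 array in each group.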

How the results depend on the processing

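Of 159 alternative values for 23 changes and line differences of the inhibitors, 155 kept their side of 2-fold and 4 called values did not, all under normexp with quantile normalization: the SLPI change in HCT116 (-0.27), SERPINA1 in A549 (-0.46), SERPINE2 in A549 (0.87) and the SERPINE2 line difference (-0.97). None of the called values changed sign. Among values short of 2-fold, the TFPI change in A549 went from -0.67 to 0.195 with the mean over probes. The offset of 50 exceeds the SLPI signals in HCT116, and for the others the cause was not tested. The SLPI change in A549 ran from -1.60 to -1.33.

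Counts of all genes at least 2-fold lower and higher (161 and 221 in HCT116, 1189 and 854 in A549) became 12, 27, 429 and 334 under that setting, 1434, 2788, 3081 and 2934 with no filter on dim probes, 1080, 747, 3259 and 2368 at 1.5-fold, and 13, 68, 326 and 223 at 3-fold. Outside areas of stray signal 139 genes were higher in HCT116. Genes higher made up 57.9% of calls in HCT116, against 69.2% under normexp with quantile normalization and 49.3% outside areas of stray signal, and 41.8% in A549, against 48.7% with quantile normalization and 49.6% with median scaling. Median scaling gave 64.3% in HCT116 and quantile normalization gave 187 lower and 187 higher there.

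Counts of listed genes lower and higher (1 and 1 in HCT116, 5 and 6 in A549) became 8, 16, 10 and 11 with no filter, 6, 3, 11 and 14 at 1.5-fold, and 0, 0, 2 and 3 at 3-fold. Under normexp with quantile normalization 0 and 0 were called in HCT116 and 2 were lower in A549. Median scaling gave 2 higher in HCT116. Outside areas of stray signal 0 were higher in HCT116 and 3 lower in A549. Genes higher were 54.5% of the listed calls in A549, and 69.2% with quantile normalization. Without replicates no array could be left out. Within a line no replicates could be paired, because each group had 1 array. Both arrays of a line were taken as a pair by the term for the line in the limma fit of the listed genes. SERPINB5 in A549, PI3 on HCT116 miR-891b and SPINT1 on A549 miR-891b were not well above background, and the other values of PI3 and that of SPINT1 on A549 NC1 lay close to it.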

Other observations

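Some listed inhibitors and coagulation proteins differed widely between the control lines, in both directions. The genes given here were chosen after their values were seen, no theme was tested, and line and slide cannot be told apart. On the NC1 arrays A549 was at least 36.9-fold higher for AMBP and at least 39.3-fold for F2 (prothrombin). It was at least 10.3-fold higher for F7, the protease that TFPI restrains together with tissue factor, and at least 17.2-fold for AGT. The spots of F2 and AGT lay in areas of stray signal. THBD, or thrombomodulin, the endothelial thrombin receptor, was higher in A549 by 5.77 on the log2 scale, and PROC, the protein C precursor that it helps to activate, by 3.94. Others were lower in A549: F10, the factor X that TFPI restrains, by a difference of -2.18, and ITIH4 by -1.70, while SERPINC1 (antithrombin) was at least 3.41-fold and SERPINA5 at least 3.07-fold higher in HCT116.

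Among the other inhibitors, TFPI2, a Kunitz inhibitor of the extracellular matrix, was at least 403-fold higher in A549, its HCT116 spots not being above background, and in A549 it changed by -0.71 with miR-891b. CST6, an epithelial cystatin with its spot in an area of stray signal, was at least 421-fold higher in HCT116. KLK7, a target protease, was at least 225-fold higher there. LXN, an inhibitor of carboxypeptidases, was at least 399-fold higher in A549. Other relatives lay close in the lines, with differences of -0.13 for SERPINB6, -0.22 for SERPINB9 and -0.19 for SPINK7.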
